A study of Rattus norvegicus with 8 samples.

Results

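The insulin-like growth factor (IGF) system was followed in a rat lung cancer model through 10 genes: the ligand Igf1, its receptor Igf1r, the 7 binding proteins Igfbp1 to Igfbp7, and Igfals, the acid-labile subunit. The members were taken as the array probes whose RefSeq transcript belongs to 1 of these genes. They comprised 13 probes, 4 of them for Igf1 and 1 for each other gene, out of 14274 mRNA probes that named 13888 genes. The question was at what level each gene was read in normal lung tissues, lung tumor tissues and blood, and which genes differed between them.

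All rats were male F344. In the NNK treatment group, lung tumors had been induced with NNK, a nitrosamine of tobacco smoke, and tissue was collected in week 95. The lung groups were 3 lung tumor tissues and 3 matched normal lung tissues, so the normal lung tissues also came from NNK-treated rats, and no lung of an untreated rat was among the arrays. The blood groups were 1 blood clot sample of the control group and 1 of the NNK treatment group, taken in the same week. The titles do not say whether each came from a single rat. The description given for the NNK blood sample repeats that of a lung tumor, but its title, source and tissue all name blood, and it was used as blood.

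IGF1 is a secreted growth factor that is made largely by the liver under the control of growth hormone and also locally by many tissues. It binds the receptor tyrosine kinase IGF1R, which signals through insulin receptor substrates to the PI3K and Akt cascade and promotes cell growth and survival. Most IGF in the circulation is held by binding proteins, mainly IGFBP3 together with the acid-labile subunit, and proteases that cut the binding proteins release it. In lung, IGF signalling takes part in growth of the organ and in repair, and it has been studied widely in lung cancer.

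Each array gave a fluorescence intensity per spot, the processed signal, and levels below are log2 processed signals after quantile normalization within the 6 lung arrays or within the 2 blood arrays. The lung arrays were alike in brightness, with 75th percentiles of the signal from 1191 to 1329. Blood was dimmer, at 95.4 for the control sample and 205.8 for the NNK sample. The arrays were compared in pairs by the mean squared difference of their log2 signals, divided by the value that the spread between spots of 1 probe on the same array would give. This ratio was 0.467 to 0.787 among the 3 normal arrays and 0.466 between tumor arrays 2 and 3, so these differed by less than the spot noise, whereas it was 3.03 and 3.36 between tumor array 1 and the other tumor arrays. The lung comparison was therefore also fitted with the 3 normal arrays counted as 1 sample and tumor arrays 2 and 3 as 1 sample, and this value stands beside the results as the one counted once. Tumor array 1 was scanned together with the normal arrays, and tumor arrays 2 and 3 in another scan. With the scan as a block the difference therefore rests on tumor array 1. The tumor samples counted once also differ in scan, so their spread cannot be told apart from a difference between scans. The labels do not say which rat gave which tissue, and the p-values measure only the spread between these arrays, which may be technical.

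In lung tumor tissues the receptor and several binding proteins were read at lower levels than in normal lung tissues, and no member was called higher. A probe was called where the fold change was at least 2 and the Benjamini-Hochberg adjusted p of limma, over all 12471 probes tested, was at most 0.05. Of the 10 genes, 9 passed the filter on dim probes and 8 could be tested. Igf1r, Igfbp1 and Igfbp3 were called lower, 3 of the 8, beside 15.5% of all probes tested. Igfbp1 passed the filter through the normal arrays alone, and Igfals through the tumor arrays alone. The filter thus largely set their direction, and the call on Igfbp1 is not separate support. None of the 8 was called higher, nor at fold 2 and an unadjusted p of 0.05, beside 13.5% of all probes tested. The median log2 fold change was -0.77 over the 8 genes, the same with Igfbp1 and Igfals at their bounds, and 0.07 over all probes tested. Igfbp6 was not tested because the scanner software marked its spots on tumor arrays 1 and 3 as outliers. With marked spots kept over the whole table, it was the fourth of 9 tested genes called lower, beside 14.4% of all probes tested that way.

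**Figure D1:**
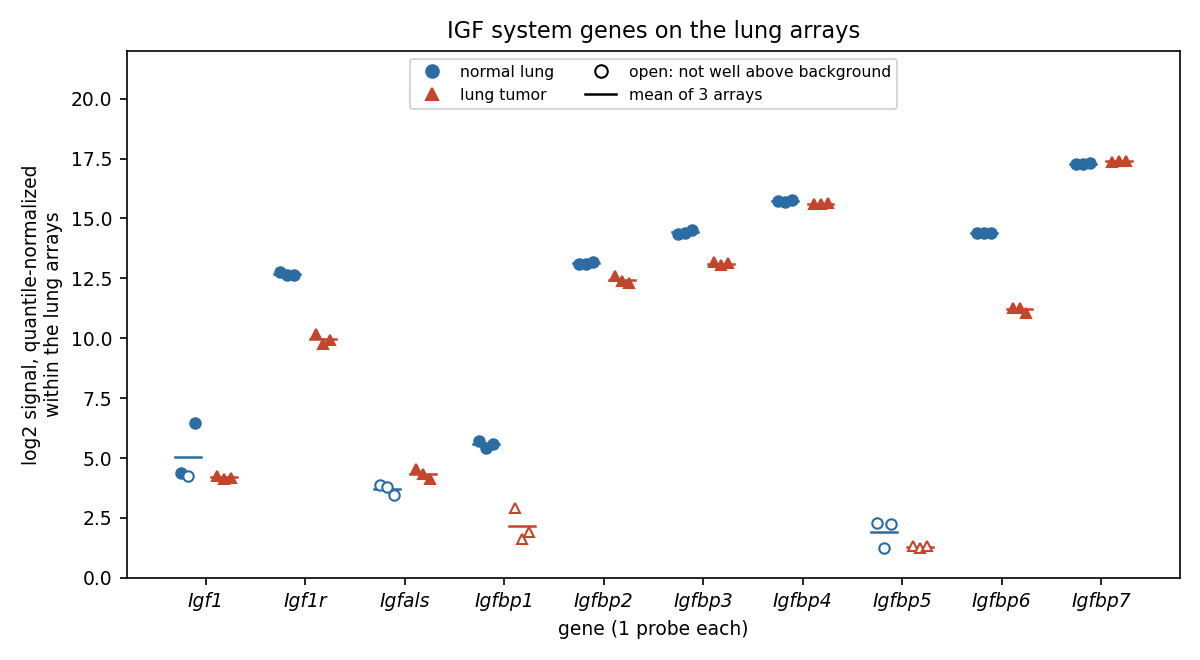
Log2 processed signal (vertical axis, no unit, quantile-normalized within the 6 lung arrays) of the 10 genes on each normal lung array (blue circles) and lung tumor array (red triangles), with the mean of 3 arrays as a bar. Open symbols were not well above background. Igf1r, Igfbp1, Igfbp3 and Igfbp6 show tumor symbols well below the normal ones, while Igfbp7 lies between 17.27 and 17.39 on all 6 arrays.

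The promoters of the 4 genes called lower in the tumors are shown, Igfbp6 being called with marked spots kept. Each sequence is the 250 bases before the start of the gene in the RefSeq annotation of assembly GRCr8, read on the strand of the gene from 5′ to 3′. Capitals mark the motifs that were searched on both strands after the sequences had been seen.
Igf1r, chr1:130959747-130959996, plus strand: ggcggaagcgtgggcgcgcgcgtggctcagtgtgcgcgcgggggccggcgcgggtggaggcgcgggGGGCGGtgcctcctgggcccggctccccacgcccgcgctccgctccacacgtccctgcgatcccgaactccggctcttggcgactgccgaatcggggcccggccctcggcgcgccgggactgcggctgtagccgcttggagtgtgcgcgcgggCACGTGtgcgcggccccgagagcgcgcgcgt
Igfbp1, chr14:86261027-86261276, plus strand: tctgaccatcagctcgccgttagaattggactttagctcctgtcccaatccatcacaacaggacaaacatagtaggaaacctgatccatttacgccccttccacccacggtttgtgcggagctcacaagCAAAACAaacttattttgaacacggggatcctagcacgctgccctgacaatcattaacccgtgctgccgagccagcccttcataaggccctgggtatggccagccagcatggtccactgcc
Igfbp3, chr14:86277945-86278194, minus strand: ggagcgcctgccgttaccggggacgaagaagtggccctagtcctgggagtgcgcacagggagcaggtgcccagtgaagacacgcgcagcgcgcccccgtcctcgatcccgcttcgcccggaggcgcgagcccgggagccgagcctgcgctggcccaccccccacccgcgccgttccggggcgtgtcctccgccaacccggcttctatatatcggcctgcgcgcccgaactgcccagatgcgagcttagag
Igfbp6, chr7:135154669-135154918, plus strand: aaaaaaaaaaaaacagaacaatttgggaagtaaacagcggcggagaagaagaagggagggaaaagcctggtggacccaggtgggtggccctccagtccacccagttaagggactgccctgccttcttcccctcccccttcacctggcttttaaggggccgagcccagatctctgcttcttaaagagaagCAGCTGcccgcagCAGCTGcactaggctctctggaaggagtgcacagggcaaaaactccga

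The 4 promoters shared none of the motifs searched. The Igf1r window held the GC box GGGCGG 184 bases before the start and the E-box CACGTG 31 bases before it, and its GC content was 79.6%. Among 33469 rat promoters of the same length, 30.5% held GGGCGG and 5.59% held CACGTG. The Igfbp1 window, with a GC content of 52.8%, held CAAAACA, the core of the insulin response element, 121 bases before the start, as did 5.46% of all promoters. The Igfbp6 window held the E-box CAGCTG at 61 and at 48 bases before the start, a motif present in 12% of all promoters. The Igfbp3 window, with a GC content of 71.6%, held none of these, nor the exact letters TATAAA of the TATA box. These were held by 12.9% of promoters. Its sequence does hold TATATAT, but other forms of the TATA box were not searched. Igfbp1 and Igfbp3 are neighbours on chromosome 14 with no other coding gene between them, and Igfbp2 and Igfbp5 are neighbours on chromosome 9. Both genes of the chromosome 14 pair were called lower in the tumors. Igfbp1, however, passed the filter through the normal arrays alone, so its call is not separate support. Of the chromosome 9 pair, Igfbp2 was below the 2-fold threshold and Igfbp5 was not well above background on any lung array. Whether neighbouring genes changed together was not tested.

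Igf1, the ligand, was read close to background in both kinds of lung tissue. Its 4 probes stand for 4 transcripts of the gene. The probe for NM_001082478.1, which had the highest mean, read 4.36, 4.26 and 6.46 on the normal arrays and 4.27, 4.14 and 4.16 on the tumor arrays. The third normal array stood apart on this probe, with a processed signal of 76.3 where the other 5 arrays lay between 16.9 and 22.6. The log2 fold change was -0.84 (SE 0.62, adjusted p = 0.279), so the difference was not larger than the spread between arrays. Without normal array 3 it was -0.12 (adjusted p = 0.250), and counted once it was -0.82 (adjusted p = 0.0982). The other Igf1 probes did not show the high value on normal array 3. The probe for NM_001082477.2 differed by -0.29 (adjusted p = 0.180), that for NM_001082479.1 by -0.02 (adjusted p = 0.939; 0.06 counted once) and that for NM_178866.4 by -0.44 (adjusted p = 0.0664) on the log2 scale.

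Igf1r, the receptor for IGF1, was read lower in all 3 tumors. The probe for NM_052807.1 read 12.77, 12.63 and 12.62 on the normal arrays and 10.17, 9.74 and 9.94 on the tumor arrays. The groups lay more than 2 log2 units apart with no overlap. The processed signals before normalization were 6377 to 7122 in normal lung and 890.4 to 1160 in tumor. The log2 fold change was -2.72 (SE 0.12, adjusted p = 2.54e-05), a 6.59-fold lower level in lung tumor. Counted once, the tumor level was 10.01 ± 0.23 (SD, n = 2) against 12.67 in the single normal sample, a log2 difference of -2.67 that remained called (limma adjusted p = 0.0360). With the scan as a block it was -2.50 (adjusted p = 0.000178).

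Igf1r was called lower under all 20 alternatives run, with log2 fold changes from -2.84 to -2.47. The genes whose levels over the 8 arrays, normalized together, were most like those of Igf1r were Ddit3 (r = 0.998), a stress-induced transcription factor, Serpina1 (r = 0.998), which encodes alpha-1-antitrypsin, and Ahsp (r = 0.998), the alpha-haemoglobin stabilising protein of red cells. These correlations describe 8 arrays that fall into lung and blood, and 48 of the 11168 candidate probes had an r above 0.99. Red blood cell markers also moved with the comparison. Of 5 markers tested in lung, 4 were called lower in the tumors, with log2 fold changes from -3.99 to -2.06. The summed signal of the 6 markers with a probe was 226603 to 235318 in normal lung and 131548 to 140069 in tumor. Most of that sum came from Hbb, which was not called, at a log2 fold change of -0.57. The part of blood content in the Igf1r difference was not tested. In bulk tissue, fewer cells of a type and less RNA per cell cannot be told apart.

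**Figure D2:**
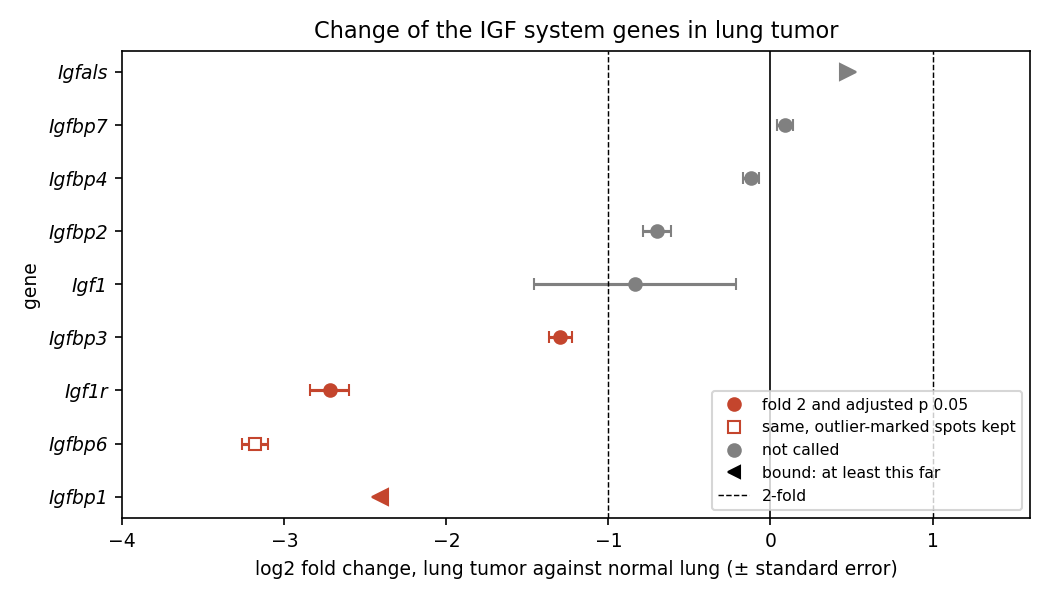
Log2 fold change in lung tumor against normal lung (horizontal axis) with its standard error for the 9 member genes with a value, 3 arrays a group. Red marks genes called at fold 2 and adjusted p 0.05, the open square marks Igfbp6 with outlier-marked spots kept, and dashed lines mark a 2-fold difference. Triangles are approximate bounds for genes not well above background in a group, 5.32-fold lower for Igfbp1 and 1.39-fold higher for Igfals. They are not strict limits. Among the red genes measured in both groups the values run from -1.30 for Igfbp3 to -3.18 for Igfbp6, and Igf1 has the widest error, 0.62.

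Igfbp6, a binding protein that prefers IGF2, was also lower in the tumors. Its probe for NM_013104.2 read 14.41, 14.37 and 14.38 on the normal arrays and 11.28, 11.28 and 11.05 on the tumor arrays. The unmarked tumor array, array 2, lay within the values of the marked ones. With marked spots kept, the log2 fold change was -3.18 (SE 0.08, adjusted p = 4.67e-06), a 9.08-fold lower level. Counted once it was -3.16 (adjusted p = 0.0283), and it was called lower under all 19 alternatives run on these values, from -3.31 to -3.10.

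Igfbp3, the main IGF carrier of the circulation, was lower by a smaller factor. Its probe for NM_012588.1 read 14.34, 14.40 and 14.51 on the normal arrays and 13.16, 13.05 and 13.15 on the tumor arrays. Every tumor array lay more than 1 log2 unit below every normal array. The log2 fold change was -1.30 (SE 0.07, adjusted p = 4.63e-05), a 2.46-fold lower level. Counted once, the log2 difference was -1.29 and was no longer called (adjusted p = 0.0502), although it was called with marked spots kept as well (adjusted p = 0.0460). It was called under the other 19 alternatives, from -1.49 to -1.25.

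Markers of several cell types of normal lung moved in the same direction as Igfbp3 and Igfbp6. All 3 endothelial markers tested were called lower, and the summed endothelial signal was 232613 to 242061 in normal lung and 47675 to 48358 in tumor, with Cdh5 not well above background on any lung array. Of 4 mesothelial markers tested, 3 were called lower, namely Msln, Wt1 and Gpm6a, with Krt19 at a log2 fold change of 0.23. Their summed signal was 94919 to 98471 in normal lung and 57604 to 60422 in tumor, where most of it came from Krt19. Of 6 type 1 alveolar markers tested, 5 were called lower. The summed signal of the 8 type 1 markers with a probe was 1204077 to 1217978 in normal lung and 354688 to 362072 in tumor. Of 3 fibroblast markers tested only Pdgfra was called lower, and none of the 6 type 2 alveolar markers tested was called in either direction. With marked spots kept, as for Igfbp6, 4 of 4 endothelial, 3 of 4 mesothelial, 6 of 8 type 1 and 2 of 7 fibroblast markers were called lower. In that setting 1 of 7 type 2 markers, Sftpc, was called higher. The part of these cell types in the lower binding protein levels was not tested.

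Igfbp1, a binding protein made mainly by liver and kept low by insulin, was well above background on the 3 normal arrays and on none of the tumor arrays. Its probe for NM_013144.1 read 5.69, 5.42 and 5.61 on the normal arrays and 2.93, 1.64 and 1.91 on the tumor arrays, with processed signals of 42.3 to 44.7 and 3.31 to 6.43. Only an approximate bound can be given for the tumors. By this bound the level in lung tumor was 5.32-fold lower than the normal mean. It took, on each tumor array, the higher of the probe's own value and the lowest value well above background. That lowest value is not a strict limit for a probe that is not well above background. On normal array 2, for example, it was 4.01, while an Igf1 probe at 4.26 was not well above background. The fitted difference was called (limma adjusted p = 0.000529), but the probe passed the filter only through the normal arrays, where it was high.

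That call on Igfbp1 was less steady than those on Igf1r and Igfbp6. Counted once, the adjusted p was 0.0679, and under normexp background correction the log2 fold change was -0.66. Without any 1 of the 3 normal arrays the probe no longer passed the filter, which asks for 3 arrays well above background. Of 12 hepatocyte markers tested in lung, 9 were called lower in the tumors, among them Alb with a log2 fold change of -3.41, and the median over the 12 was -3.31, or -3.10 with genes not well above background in a group set at their bound. The summed hepatocyte signal was 69756 to 72517 in normal lung and 74269 to 79845 in tumor, and it held Fgg, which read 15.43 in normal lung and 16.18 in tumor. Tat was not well above background on any lung array. The part of liver transcripts in the Igfbp1 difference was not tested.

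Igfbp2, a binding protein with affinity for IGF1 and IGF2, passed the adjusted p but not the 2-fold threshold. It read 13.11, 13.11 and 13.18 on the normal arrays and 12.59, 12.39 and 12.32 on the tumor arrays. The log2 fold change was -0.70 (SE 0.09, adjusted p = 0.00109), beside 31.4% of all probes tested that were lower at an adjusted p of 0.05 whatever their fold. Counted once the adjusted p was 0.156.

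Igfbp4 and Igfbp7 did not pass the adjusted p and stayed far below 2-fold. Igfbp4, a binding protein that pappalysin cuts, read 15.74, 15.70 and 15.78 on the normal arrays and 15.61, 15.61 and 15.63 on the tumor arrays. The log2 fold change was -0.12 (SE 0.05, adjusted p = 0.0741). Igfbp7, a related protein of low IGF affinity that is deposited around vessels, read 17.28, 17.27 and 17.33 on the normal arrays and 17.37, 17.39 and 17.39 on the tumor arrays. The difference was 0.09 on the log2 scale (SE 0.05, adjusted p = 0.147). Counted once the adjusted p was 0.668 for Igfbp4 and 0.756 for Igfbp7. Some alternatives took these small differences past an adjusted p of 0.05, among them the 75th percentile shift, with -0.20 for Igfbp4 (adjusted p = 0.0355) and 0.21 for Igfbp7 (adjusted p = 0.0290).

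Igfals, which encodes the subunit that joins IGF and IGFBP3 in a long-lived complex, had a positive difference at an adjusted p under 0.05 that stayed below 2-fold. Its probe for NM_053329.2 read 3.86, 3.80 and 3.47 on the normal arrays and 4.55, 4.33 and 4.12 on the tumor arrays, and it was well above background only on the tumor arrays. By the approximate bound used for Igfbp1, the level in tumor was 1.39-fold higher (adjusted p of the fitted difference = 0.0173). Of all probes tested, 33.7% were higher at that p whatever their fold. The probe passed the filter only through the tumor arrays, where it was higher, and under normexp its log2 fold change was 0.12. Counted once the adjusted p was 0.177, and under normexp it was 0.0625. Igfbp5, a binding protein of the extracellular matrix, was not well above background on any lung array, with processed signals of 1.88 to 3.95, and was not tested.

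The blood arrays were 1 against 1, so the differences have no replicate check and no test. Of the 10 genes, 5 could be compared, namely Igfbp1, Igfbp3, Igfbp4, Igfbp6 and Igfals. Only Igfbp1 differed by 2-fold or more. Its processed signal was 48.4 in control blood and 33.1 in NNK blood, and its normalized log2 level was 6.21 and 4.33, a 3.68-fold lower level in NNK blood. Among all probes compared in blood, 19.1% were at least 2-fold lower and 23.1% at least 2-fold higher.

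The size of the Igfbp1 difference in blood moved with the processing, from -3.35 with the authors' normalized values to -0.72 with normexp on the log2 scale. Igfbp3 read 10.92 in control blood and 10.89 in NNK blood, a difference of -0.03, which became -0.72 under a shift to the 75th percentile. Igfbp4 differed by -0.51, Igfbp6 by -0.60 and Igfals by -0.68 on the log2 scale. Before normalization the signals of these 4 genes were higher in NNK blood, for example 1676 against 2196 for Igfbp3 and 131.3 against 174.9 for Igfals, on an array that was brighter overall. After each of the normalizations run, all 4 were lower in NNK blood. The median log2 difference over all probes compared in blood was also negative, at -0.11 in the main normalization. The -0.03 of Igfbp3 was smaller in size than that median.

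Igf1r was bright in both blood samples, but its spot on the NNK array was marked as an outlier. With that spot kept, it read 13.22 in control blood and 13.02 in NNK blood, with processed signals of 9163 and 8714. That log2 difference of -0.20 became -1.18 under the shift to the 75th percentile. Igf1, Igfbp2, Igfbp5 and Igfbp7 were not well above background on either blood array, and their differences are not given.

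Lung and blood were set side by side after quantile normalization over all 8 arrays, as a description of each probe with no test. This gives the dimmer blood arrays the same distribution of signals as the lung arrays. The order of lung and blood can therefore depend on the normalization. Igf1r was highest in blood, at 15.17 in control and 15.05 in NNK blood, the latter from a spot marked as an outlier. Normal lung followed with a mean of 11.67 and lung tumor with 9.20. Before normalization blood and normal lung lay much closer, with processed signals of 9163 and 8714 in blood. They were 6377 to 7122 in normal lung and 890.4 to 1160 in tumor. The size of the gap between blood and normal lung thus rests largely on the normalization. Igfals was also highest in blood, with 10.24 and 9.11, and means of 3.63 in normal lung and 4.21 in tumor. For this gene the lung groups were less than 1 log2 unit apart, and normal lung was not well above background.

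Igfbp2, Igfbp4, Igfbp6 and Igfbp7 were read highest in a lung group. Igfbp6 had a mean of 13.46 in normal lung, 11.71 and 10.99 in control and NNK blood, and 10.31 in tumor. Before normalization its order of blood and tumor was the reverse, with processed signals of 308.6 and 383.8 in blood and 2076 to 2478 in tumor. Igfbp4 had means of 15.07 in normal lung and 14.92 in tumor, and 11.67 and 11.05 in blood. Igfbp2 and Igfbp7 stood at 12.13 and 17.03 in normal lung and at 11.44 and 17.16 in tumor, and were not well above background in blood. After this normalization Igfbp3 differed by little between normal lung, with a mean of 13.49, and blood, with 13.64 and 13.62, whereas tumor had a mean of 12.12. Its processed signals before normalization were 21373 to 24254 in normal lung, 7951 to 8947 in tumor, and 1676 and 2196 in control and NNK blood. The likeness of normal lung and blood thus rests on the normalization.

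Igfbp1 read 7.86 in control blood, 5.36 in normal lung and 4.79 in NNK blood, and was not well above background in tumor. Igf1 was measured only in lung, and over the 8 arrays genes among those most like it were Zbtb33 (r = 0.974) and Ten1 (r = 0.967), out of 11165 candidate probes. For Igf1 these values rest on a probe with 1 high normal array.

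**Figure D3:**
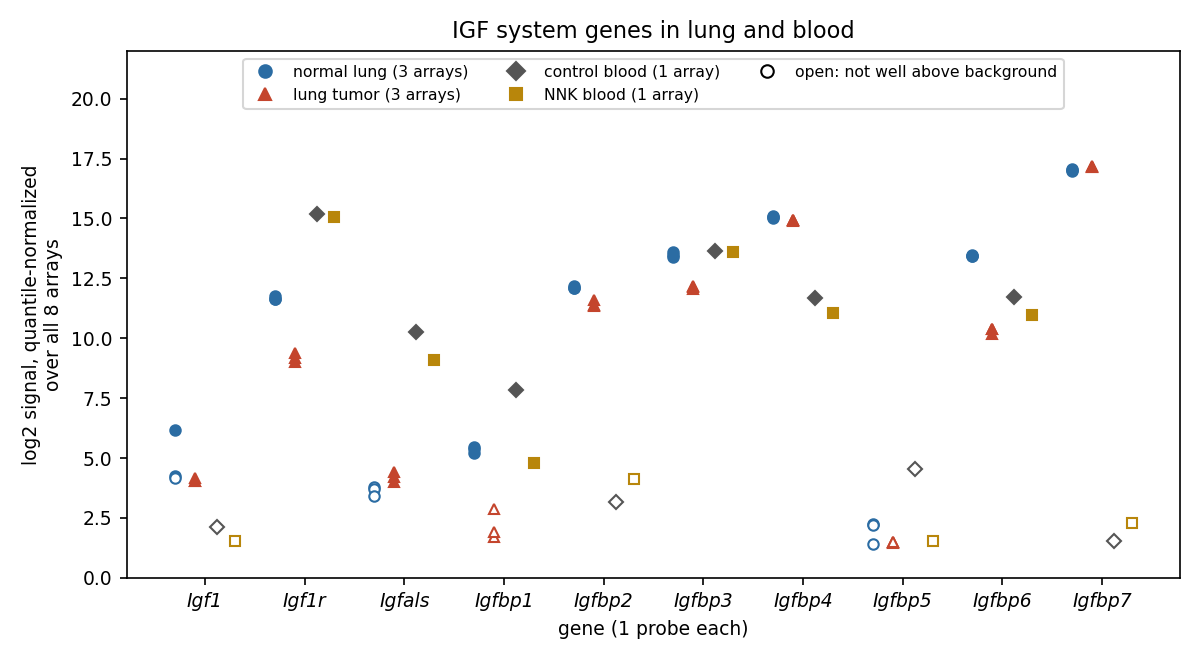
Log2 processed signal quantile-normalized over all 8 arrays (vertical axis, no unit) of the 10 genes on 3 normal lung, 3 lung tumor, 1 control blood and 1 NNK blood array. Open symbols were not well above background. Igf1r and Igfals lie highest in blood, and Igfbp2, Igfbp4 and Igfbp7 lie highest in lung.

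The rest of the pathway was described with 65 further genes in 6 lists, of which 50 had a probe and 29 were tested. Of these 29, 6 were called higher and 6 lower, beside 13.5% and 15.5% of all probes tested, and the median log2 fold change was 0.24. For Gh1, Socs2 and Ghrhr, among those called, the filter largely set the direction, as described below. With marked spots kept, 40 were tested, 7 higher and 8 lower, beside 13.5% and 14.4% of all probes tested that way. Under normexp background correction 2 were called higher.

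Of the ligands and the growth hormone axis, 5 of 12 genes were tested, with 2 called higher and 1 lower. The 2 called higher, Gh1 and Socs2, passed the filter through the tumor arrays alone. The 1 called lower, Ghrhr, passed through the normal arrays alone. The filter thus largely set the direction of these calls, and their p-values are not separate support. Gh1, growth hormone, read 1.71 to 2.21 on the normal arrays, none of them well above background, and 6.64 to 7.36 on the tumor arrays. By the approximate bound used for Igfbp1 it was 8.52-fold higher in tumor (adjusted p of the fitted difference = 2.74e-05). Socs2, which damps growth hormone signalling, was 3.94-fold higher by that bound (adjusted p of the fitted difference = 0.0365). It read 7.56 on tumor array 1 and 5.01 and 4.92 on the others, and it was not called when arrays were counted once. Ghrhr, the receptor for growth hormone releasing hormone, was 4.57-fold lower by the same bound (adjusted p of the fitted difference = 4.14e-05) and was not well above background in tumor. Ghr, the growth hormone receptor, differed by 0.94 on the log2 scale (adjusted p = 0.00733; 0.143 counted once), below 2-fold. Igf2, the second ligand, had marked spots. With these kept it read 11.27 to 11.35 on the normal arrays and 10.84 to 11.10 on the tumor arrays, a log2 fold change of -0.36 (adjusted p = 0.0114).

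Of the receptors and adaptors, 6 of 11 genes were tested, with 0 called higher (nor any at fold 2 and an unadjusted p of 0.05) and 2 called lower. Insrr, the insulin receptor-related receptor, read 9.13 to 9.15 on the normal arrays and 5.84 to 6.32 on the tumor arrays, a log2 fold change of -3.10 (adjusted p = 2.11e-05; 0.0357 counted once). Irs3, an insulin receptor substrate, fell by 1.32 on the log2 scale (adjusted p = 0.00778), but was not called when arrays were counted once. Igf2r, which clears IGF2 from the cell surface, differed by 0.09 (adjusted p = 0.181) and Irs1 by 0.24 (adjusted p = 0.189), with adjusted p of 0.753 and 0.713 counted once. Insr, the insulin receptor, did not pass the filter, and no probe was found for Irs2.

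In the PI3K, Akt and mTOR cascade 1 of 10 genes tested was called, Foxo3, a transcription factor that Akt inactivates. It read 5.02 to 5.79 on the normal arrays and 6.42 to 6.70 on the tumor arrays, with a log2 fold change of 1.23 (adjusted p = 0.00561), and was not called when arrays were counted once (adjusted p = 0.0628). Of the IGF2 mRNA binding proteins none passed the filter.

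Of the proteases that cut binding proteins and their inhibitors, 3 of 10 genes were tested, with 2 called higher and 1 lower, read against the 13.5% and 15.5% of all probes. Adam9, a membrane metalloprotease, read 4.33 to 4.60 on the normal arrays and 7.53 to 7.94 on the tumor arrays, a log2 fold change of 3.29 (adjusted p = 2.08e-05). Mmp7, the secreted protease matrilysin, rose by 1.62 (adjusted p = 5.68e-05). Stc1, a stanniocalcin, from the family that blocks pappalysin, read 12.58 to 12.80 on the normal arrays and 10.64 to 10.77 on the tumor arrays, without overlap (adjusted p = 1.74e-05). Counted once, the adjusted p was 0.0347 for Adam9, 0.0399 for Mmp7 and 0.0360 for Stc1, and all 3 were still called. Htra1, a serine protease, was called with marked spots kept, at a log2 fold change of 1.00. Stc2 did not pass the filter and no probe was found for Pappa.

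Of the proteins related to the binding proteins, 5 of 10 genes were tested, with 1 called higher and 2 lower. Igfbpl1, which shares their amino-terminal domain, read 10.75 to 10.96 on the normal arrays and 7.47 to 7.64 on the tumor arrays, a log2 fold change of -3.32 (adjusted p = 5.43e-06). Ccn3 fell by 1.30 (adjusted p = 0.000418) and was not called when arrays were counted once (adjusted p = 0.0587), whereas Ccn4, a Wnt-induced matrix protein, rose by 1.83 (adjusted p = 2.80e-05). Counted once, Igfbpl1 (adjusted p = 0.0347) and Ccn4 (adjusted p = 0.0370) were still called. With marked spots kept, Esm1, an endothelial proteoglycan, was lower by a log2 fold change of -3.03 and Ccn1 by -1.41, and both were called.

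**Figure D4:**
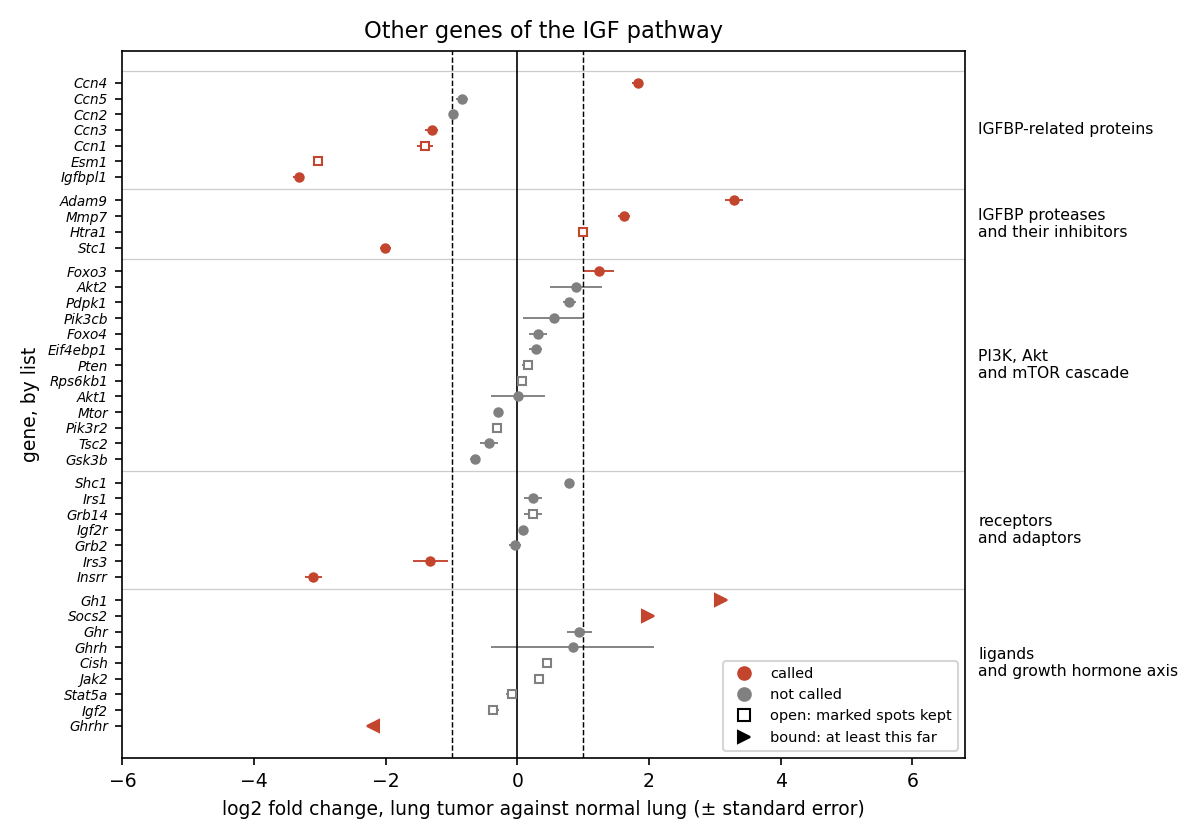
Log2 fold change in lung tumor against normal lung (horizontal axis) with its standard error for the 40 pathway genes that passed the filter, grouped by list, 3 arrays a group. Red marks genes called, grey those not called, open squares those with a value only with marked spots kept, and dashed lines a 2-fold difference. Triangles are approximate bounds, not strict limits, for Gh1, Socs2 and Ghrhr, which were not well above background in 1 group. Of the genes measured in both groups, Adam9 at 3.29 and Igfbpl1 at -3.32 lie farthest out.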

How the data were processed

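Total RNA of 6 lung and 2 blood samples had been labelled with Cy3 and hybridised to the Arraystar rat lncRNA array. The deposited intensities are processed signals of Agilent Feature Extraction 10.5.1.1, which subtracts background per spot; they carry no normalization across arrays. A table of log2 values, quantile-normalized by the authors over the 8 arrays, served as an alternative. The spot flags used are those of the deposited scanner output.

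In R 4.3.3, log2 processed signals of 42136 non-control spots were quantile-normalized within the 6 lung and within the 2 blood arrays. Outlier-marked spots were left out, no spot was saturated, and spots of a probe were averaged (each member probe has 1 spot). Probes needed over 50% of spots well above background on at least 3 lung arrays or 1 blood array. In lung 15803 probes passed and 12471, with at least 2 values in each group, were tested with lmFit and eBayes of limma 3.58.1, with the group as the only term and Benjamini-Hochberg adjustment. The number of arrays limits the precision. A gene with several probes took its call from the probe with the highest mean in lung.

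RefSeq names and promoters come from assembly GRCr8, through which 14274 of 15323 mRNA probes (93.2%) were named. The sequences of the probes and proteins were not analysed here. Arrays were compared by the ratio of the mean squared difference to that expected from spots of 1 probe. All members were named, with 10 pathway genes named in any case and at most the 4 called with the largest change per list. For Igf1 and Igf1r the 3 probes with the most similar levels were also taken, of which 1 is not reported here. The members, lists and markers were chosen with earlier results of these data known. The fit was tested on simulated data.

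The alternatives comprised quantile normalization of lung and blood together, a shift to the 75th percentile, normexp with an offset of 50, a signal floor of 5, no filter and a stricter filter, marked spots kept, the authors' values, the methods' t-test and its paired form as read from its Benjamini-Hochberg adjusted p, an unadjusted threshold, the replicate number or the scan as a block, near-identical arrays counted once, and each lung array left out. Running the alternatives for Igfbp6 with marked spots kept was chosen after seeing the data.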

Additional observations from a re-analysis of the deposited data

How the results depend on the processing

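Counting near-identical arrays once left 1 member gene called lower, Igf1r, in a fit of 1 normal against 2 tumor samples in which the single normal sample is taken to vary as the tumors do. Over the other alternatives 2 to 4 were called lower and 0 higher. Leaving out each lung array in turn gave 2 or 3 member genes lower, with 2 wherever a normal array was left out, since Igfbp1 then failed the filter. For the other pathway genes it gave 4 or 5 higher and 5 or 6 lower. Under normexp 2 pathway genes were called higher in place of 6. Over all alternatives 4 to 9 were called lower. In blood, 2 members were at least 2-fold lower with quantile normalization over all 8 arrays and 2 with the authors' values (Igfbp1 and Igfals), and 0 with normexp. With a replicate block 3 member genes were called lower, and the block changed no other call of a member. It called 3559 probes in place of 3612, with 3487 shared. Deviations from the group means of same-numbered samples correlated at 0.143, -0.04 and 0.160. These values cannot decide whether the numbers are pairs, because the normal arrays differed by less than the spot noise. The labels do not say which rat gave which tissue, so the numbers were not taken as pairs. The gene probes of the members tested in lung, and of those compared in blood, kept their sign under the alternatives run. The cause of these changes was not tested, other than that of the filter and of the smaller number of samples. Probes at or near background, as for Igf1, Igfals and Igfbp1, limit what can be read from these arrays.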
